A study of Arabidopsis thaliana with 4 samples.

Results

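CHG-only regions are stretches of the nuclear genome that the authors listed as differentially methylated between ndx1-4 and Col-0 seedlings in the CHG context (where H is A, C or T), with no differentially methylated region of the CG or CHH context overlapping them by 1 bp or more. DNA methylation was measured by bisulfite sequencing, which reads an unmethylated cytosine as thymine and a methylated cytosine as cytosine. Genomic DNA came from 14-day-old Arabidopsis thaliana seedlings of 2 genotypes: the ndx1-4 mutant, which carries a T-DNA insertion in NODULIN HOMEOBOX (NDX), and Col-0, the wild-type accession. Each genotype was represented by 2 libraries, and no other allele or treatment entered the comparison, so ndx1-4 stands for a single mutant line. Of 7023 listed regions, 833 were CHG regions and 743 of these lay on the 5 nuclear chromosomes. A stretch of chromosome 2 that is a nuclear copy of mitochondrial DNA was left out with its 28 CHG regions, of which 11 had no overlapping region of another context. Of the remaining nuclear CHG regions, 405 overlapped a CG or CHH region and 310 did not, and the 310 are the CHG-only regions described here. Among the listed regions, the choice used positions only and not the direction of the change. The list itself holds differences that the authors called from the levels, in each context. The split into CHG-only and overlapped regions is therefore not independent of the levels.

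The authors gave the methylation level of a region as a fraction, the mean over its cytosines, in one value per genotype with both libraries combined. The spread between libraries is therefore not given for any level, no test across libraries could be made, and the statements below describe the listed regions. The read depth behind each level is unknown. Intervals of shares (95%, Wilson) and of medians (95%, order statistics) cover the counting of regions only, and neighbouring regions are not independent of each other. A region without a listed CG or CHH region may still have changed in those contexts below the authors' calling thresholds, which are not given in the sources used here.

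In plants, CHG methylation is maintained by CHROMOMETHYLASE 3 (CMT3), which binds nucleosomes dimethylated at histone H3 lysine 9, and the histone methyltransferases SUVH4, SUVH5 and SUVH6 bind methylated non-CG cytosines in turn. CAG and CTG sites are symmetric, with a CHG cytosine on either strand, whereas the complement of CCG is CGG, so its outer cytosine has no CHG partner and its inner cytosine is a CG site. CG methylation is copied by MET1, and CHH methylation is set by CMT2 in heterochromatin and by the small-RNA-directed DRM2 pathway. CHG methylation is dense in transposons and in the gene-poor heterochromatin around centromeres, and is kept out of most active genes by the histone demethylase IBM1.

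The sequences of 6 CHG-only regions are shown first, because they had the largest differences with 10 or more cytosines in each direction among those of 300 bp or less without untranslated exon sequence. They were read on the plus strand from the RefSeq copy of TAIR10.1. Capitals mark every cytosine in a CHG site and every guanine that pairs with such a cytosine on the other strand, so a symmetric site reads CaG or CtG and a CCG site has 1 capital. The first 3 were hypomethylated in ndx1-4 and the last 3 hypermethylated.
chr1:18648957-18649131: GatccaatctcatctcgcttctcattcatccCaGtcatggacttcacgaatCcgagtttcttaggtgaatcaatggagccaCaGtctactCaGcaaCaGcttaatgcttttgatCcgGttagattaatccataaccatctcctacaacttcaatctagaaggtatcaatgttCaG
chr2:6731767-6732020: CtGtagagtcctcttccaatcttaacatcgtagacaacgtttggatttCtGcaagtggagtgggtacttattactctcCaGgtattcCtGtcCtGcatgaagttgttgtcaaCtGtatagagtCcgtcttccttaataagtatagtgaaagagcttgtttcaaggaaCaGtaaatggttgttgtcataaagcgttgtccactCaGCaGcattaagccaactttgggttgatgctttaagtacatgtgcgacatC
chr1:8644091-8644246: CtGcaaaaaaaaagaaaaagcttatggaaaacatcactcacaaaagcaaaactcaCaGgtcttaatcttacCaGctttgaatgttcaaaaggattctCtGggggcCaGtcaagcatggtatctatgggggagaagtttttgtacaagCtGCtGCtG
chr4:13631889-13631967: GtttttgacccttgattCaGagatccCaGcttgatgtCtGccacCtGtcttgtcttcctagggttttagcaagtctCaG
chr3:21608403-21608483: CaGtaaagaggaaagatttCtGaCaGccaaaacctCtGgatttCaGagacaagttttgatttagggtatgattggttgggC
chr2:10199138-10199282: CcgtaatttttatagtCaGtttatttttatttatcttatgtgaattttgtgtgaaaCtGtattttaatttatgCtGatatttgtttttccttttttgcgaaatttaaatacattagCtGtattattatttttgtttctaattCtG

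These regions held 14, 20, 16, 11, 11 and 11 reference CHG cytosines in the order printed, over 175, 254, 156, 79, 81 and 145 bp. The authors' cytosine count of a region equalled the reference CHG count in 272 of the 310 CHG-only regions, and all 310 started and ended on a CHG cytosine. The region at chr1:18648957-18649131 was one of the exceptions, with 10 cytosines counted by the authors. Of the 6 sequences, chr1:8644091-8644246, chr4:13631889-13631967 and chr3:21608403-21608483 contained 0 CG dinucleotides.

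CHG-only regions were mostly places where the mutant had less CHG methylation. A region is called hypomethylated when its level was lower in ndx1-4 and hypermethylated when it was higher. Of the 310 CHG-only regions, 277 were hypomethylated (89.4%, interval 85.4 to 92.3) and 33 were hypermethylated, beside 64.6% hypomethylated and 35.4% hypermethylated among all 743 nuclear CHG regions listed. Of the 405 CHG regions overlapped by a CG or CHH region, 176 were hypomethylated (43.5%, interval 38.7 to 48.3). The share was 62.7% of 2663 nuclear regions listed in CHH alone and 44.0% of 2302 listed in CG alone. On the single chromosomes, 41 of 46, 81 of 92, 59 of 61, 36 of 44 and 60 of 67 CHG-only regions were hypomethylated on chromosomes 1 to 5.

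The direction also varied with the position on the chromosome. Pericentromeric stretches were taken as the gene-poor 21.1 Mb (17.7% of the nuclear chromosomes) where exon coverage stayed under 50% of the chromosome median. In these stretches 175 of 183 CHG-only regions were hypomethylated (95.6%, interval 91.6 to 97.8), and on the arms 102 of 127 were (80.3%, interval 72.5 to 86.3). Among overlapped CHG regions the counts were 71 of 109 in pericentromeric stretches (65.1%) and 105 of 296 on the arms (35.5%, interval 30.2 to 41.1). Regions listed in CHH alone had 85.2% hypomethylated in pericentromeric stretches and 39.4% on the arms. The intervals of the CHG-only and the overlapped regions therefore did not meet in either compartment. CHG-only regions on the arms were mostly hypomethylated, while arm regions of the other 3 sets were mostly hypermethylated.

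**Figure D1:**
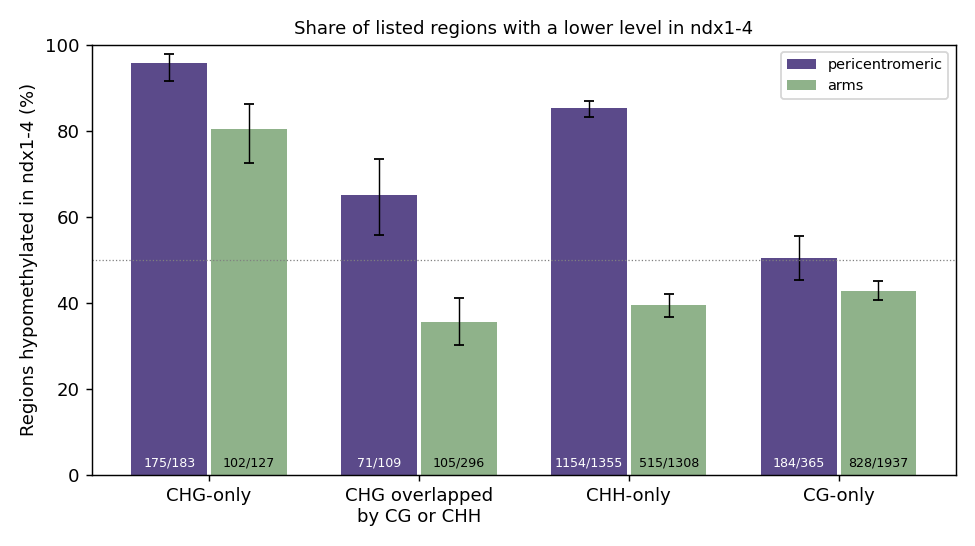
Share of listed regions with a lower level in ndx1-4 than in Col-0 (y axis, %), for 4 sets of nuclear regions (x axis), in pericentromeric stretches and on chromosome arms. Bars are shares, error bars are 95% Wilson intervals over regions, and counts stand inside the bars. CHG-only regions have the highest share in both compartments, 95.6% and 80.3%.

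Hypomethylated CHG-only regions were concentrated near the centromeres. Of the 277, 175 had a pericentromeric midpoint (63.2%, interval 57.4 to 68.6), beside 71 of 176 hypomethylated overlapped CHG regions (40.3%, interval 33.4 to 47.7). This is 8.29 regions per Mb in pericentromeric stretches and 1.04 per Mb on the arms, against 3.37 and 1.07 per Mb for overlapped hypomethylated CHG regions. The arm densities of both sets were thus close, and the pericentromeric densities were not. The share by chromosome was 27 of 41, 50 of 81, 43 of 59, 17 of 36 and 38 of 60 on chromosomes 1 to 5, lowest on chromosome 4. This depends on the boundary drawn. With exons of protein-coding genes only, the stretches of chromosomes 2 and 4 began at position 1700001, instead of 2000001 and 2400001. The pericentromeric share of the 277 was then 68.2%. With shorter stretches, at under 25% of the chromosome median, it was 43.3%. Of the 33 hypermethylated CHG-only regions, 8 were pericentromeric (24.2%, interval 12.8 to 41.0). This is 0.379 regions per Mb in pericentromeric stretches and 0.255 per Mb on the arms. In the CHH-only set, 69.1% of hypomethylated regions were pericentromeric, and in the CG-only set 18.2% were.

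The loss of CHG methylation in CHG-only regions was partial. Hypomethylated CHG-only regions had a median CHG level of 0.303 in ndx1-4 and 0.534 in Col-0, and a median difference of -0.20 (interval -0.21 to -0.19, range -0.54 to -0.067). The ndx1-4 level was a median 59.1% of the Col-0 level (interval 56.1 to 62.0). Overlapped hypomethylated CHG regions had a median of 0.0364 in ndx1-4 and 0.355 in Col-0, a median difference of -0.26 (interval -0.28 to -0.24), and the ndx1-4 level was 12.6% of the Col-0 level (interval 9.62 to 15.8). A level under 0.1 in ndx1-4 was found in 33 of the 277 CHG-only regions (11.9%) and in 124 of the 176 overlapped regions (70.5%). CHG-only regions therefore mostly stayed methylated in the mutant, while most overlapped regions were nearly unmethylated there.

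**Figure D2:**
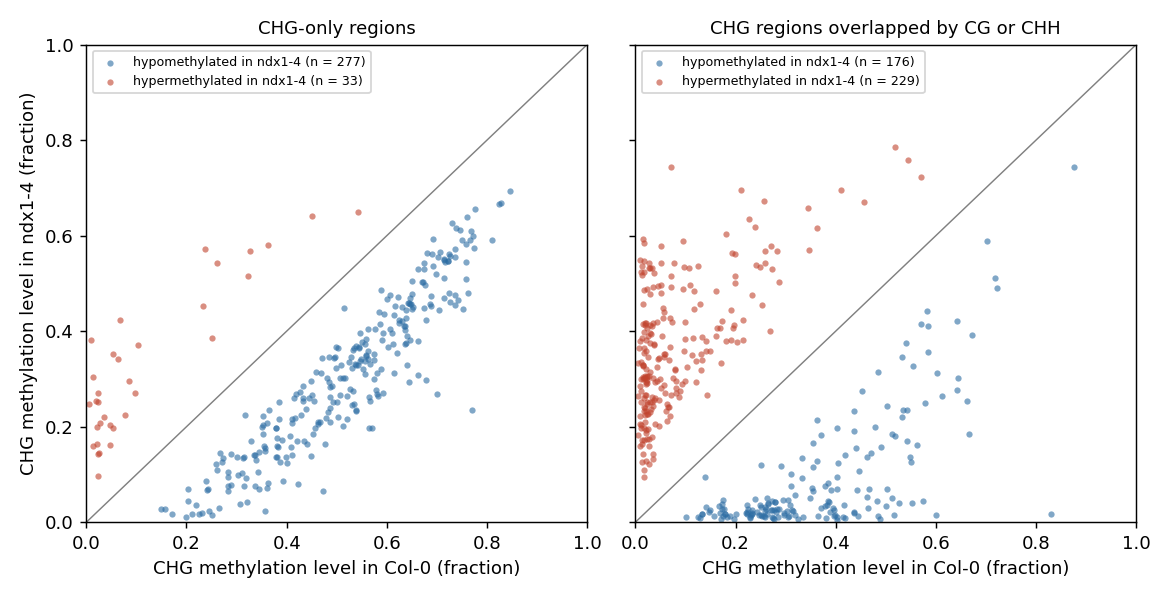
CHG methylation level of each region in ndx1-4 (y axis, fraction) against Col-0 (x axis, fraction), for the 310 CHG-only regions and the 405 CHG regions overlapped by a CG or CHH region. Each point is 1 region, blue for hypomethylated and red for hypermethylated, and the line marks equal levels. Hypomethylated CHG-only regions lie in a band below the line, and overlapped ones crowd near a level of 0 in ndx1-4.

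Within the hypomethylated CHG-only regions, the size of the loss hardly moved with the starting level. The median difference was -0.18 for a Col-0 level from 0.2 to 0.3 (24 regions), -0.20 from 0.3 to 0.4 (43 regions), -0.20 from 0.4 to 0.5 (49 regions), -0.21 from 0.5 to 0.6 (64 regions) and -0.19 at 0.6 or more (94 regions). The 3 regions with a Col-0 level under 0.2 had a median difference of -0.13. Across the 277 regions the Spearman correlation of the Col-0 level with the difference was -0.02, and that of the Col-0 level with the ndx1-4 level was 0.93. Across the 176 overlapped regions these were -0.62 and 0.61. The regions of a set share their libraries and are not independent, and both correlations share the Col-0 value, so they are given as a description. Every region was also listed because the authors called a difference there, and no region can lose more than its Col-0 level. The part of this selection in the even size of the loss was not tested. In overlapped regions the median difference was -0.23 for a Col-0 level from 0.2 to 0.3 and -0.36 from 0.4 to 0.5.

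The percentage of the level kept in ndx1-4 followed from this band. It was a median of 27.6% for CHG-only regions with a Col-0 level from 0.2 to 0.3, 52.6% from 0.4 to 0.5 and 71.4% at 0.6 or more, against 8.93%, 16.5% and 49.5% in overlapped regions. CHG-only regions kept more at each starting level. The share of hypomethylated CHG regions that were CHG-only was 3 of 26 under a Col-0 level of 0.2 (11.5%), 24 of 70 from 0.2 to 0.3 (34.3%), 49 of 79 from 0.4 to 0.5 (62.0%) and 94 of 108 at 0.6 or more (87.0%, interval 79.4 to 92.1).

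**Figure D3:**
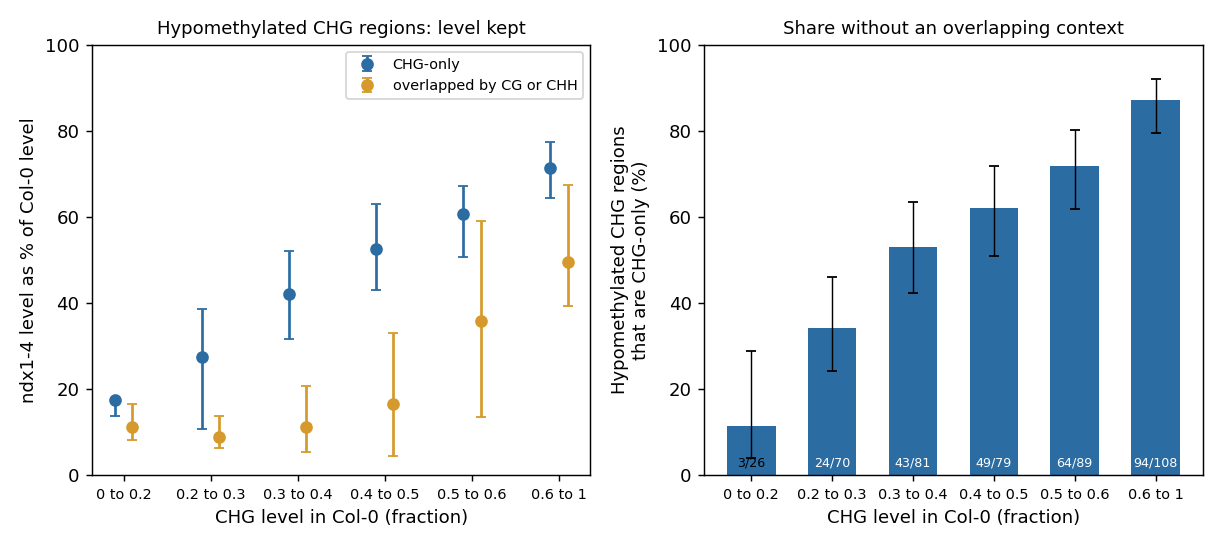
Left, the ndx1-4 level as a percentage of the Col-0 level (y axis) in hypomethylated CHG regions by their Col-0 level (x axis, fraction), with points for medians and bars for quartiles. Right, the share of these regions that are CHG-only (y axis, %), with 95% Wilson intervals and counts. The CHG-only share runs from 11.5% in the lowest bin to 87.0% in the highest.

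The hypermethylated CHG-only regions started from little CHG methylation. Their median level was 0.271 in ndx1-4 and 0.0529 in Col-0, with a median difference of 0.19 (interval 0.16 to 0.24, range 0.074 to 0.37). In 23 of 33 the Col-0 level was under 0.1 (69.7%, interval 52.7 to 82.6), close to 167 of 229 overlapped hypermethylated CHG regions (72.9%). Overlapped hypermethylated regions had a median of 0.353 in ndx1-4 and 0.0425 in Col-0, and a median difference of 0.27 (interval 0.25 to 0.28). The regions with the smallest listed differences were chr3:14201006-14201061 (0.448 in ndx1-4, 0.515 in Col-0) and chr4:4664938-4665031 (0.225 in ndx1-4, 0.318 in Col-0) among hypomethylated ones. Among hypermethylated ones they were chr1:13200966-13201026 (0.0968 in ndx1-4, 0.0230 in Col-0) and chr2:1909666-1909720 (0.650 in ndx1-4, 0.543 in Col-0).

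CHG-only regions were short and rich in symmetric CHG sites. The median length was 90 bp with 9 cytosines in hypomethylated and 73 bp with 7 cytosines in hypermethylated CHG-only regions, against 127 and 115 bp in overlapped regions of each direction. A longer region has more room to meet a region of another context, and the part of length in the comparisons between both sets was not tested. Hypomethylated CHG-only regions held a median of 11.0 CHG cytosines per 100 bp (interval 10.3 to 11.8), against 8.53 in overlapped hypomethylated regions (interval 7.77 to 9.0). CCG sites made up 14.5% of all CHG cytosines in hypomethylated and 12.2% in hypermethylated CHG-only regions, against 21.0% and 19.8% in overlapped ones. No CCG site was present in 125 of the 310 CHG-only regions (40.3%) and in 78 of the 405 overlapped regions (19.3%). Each CCG site holds a CG site, and the part of the overlap rule in these CCG values was not tested.

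The density of CG sites varied widely among CHG-only regions. The median was 1.92 CG dinucleotides per 100 bp in CHG-only regions (interval 1.72 to 2.20), against 2.37 in overlapped regions (interval 2.10 to 2.60), and these intervals overlapped. Summed over all bases, hypomethylated CHG-only regions had 2.75 and overlapped hypomethylated regions 2.79 CG dinucleotides per 100 bp, while hypermethylated CHG-only regions had 1.48 and overlapped hypermethylated regions 2.45. No CG site at all lay inside 61 of the 310 CHG-only regions (19.7%, interval 15.6 to 24.5) and inside 29 of the 405 overlapped regions (7.16%, interval 5.03 to 10.1). A stretch without CG sites is less open to overlap by a listed CG region. The part of the overlap rule in this contrast was not tested. The median GC content was 40.5% in CHG-only and 36.6% in overlapped regions.

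Of the 61 CHG-only regions without a CG site inside, 50 were hypomethylated, as were 227 of the 249 with one. Among these hypomethylated regions, the size of the loss was close in both groups. Hypomethylated CHG-only regions without a CG site had a median CHG level of 0.357 in ndx1-4 and 0.551 in Col-0 (n = 50), and those with one 0.30 in ndx1-4 and 0.532 in Col-0 (n = 227). The level kept was a median 63.7% without a CG site (interval 57.5 to 68.8) and 58.5% with one (interval 54.0 to 61.3), and the median differences were -0.18 (interval -0.21 to -0.17) and -0.20 (interval -0.21 to -0.20). The region without a CG site that held the most cytosines, chosen after its values were seen, is printed next, to show a stretch in which CHG could change with no CG site present.
chr1:15870810-15870944: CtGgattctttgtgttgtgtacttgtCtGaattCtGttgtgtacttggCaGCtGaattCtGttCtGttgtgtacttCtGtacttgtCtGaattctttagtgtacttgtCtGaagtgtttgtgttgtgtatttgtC

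This region lay in the pseudogene AT1G42410 and had a CHG level of 0.466 in ndx1-4 and 0.601 in Col-0 over 21 cytosines. It held 0 CCG sites, and 10 copies of its sequence were found elsewhere in the nuclear genome.

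Hypomethylated CHG-only regions were often repeated sequence. A copy elsewhere (blastn, 80% identity or more over 80% or more of the region) was found for 170 of 277 (61.4%, interval 55.5 to 66.9), against 53 of 176 overlapped hypomethylated CHG regions (30.1%, interval 23.8 to 37.3). The counts were 121 of 175 in pericentromeric stretches (69.1%) and 49 of 102 on the arms (48.0%), against 30 of 71 (42.3%) and 23 of 105 (21.9%) for overlapped regions. At least 10 copies were found for 63 of 277 (22.7%) and for 9 of 176 overlapped regions (5.11%), with up to 379 copies of a single CHG-only region. Of the 33 hypermethylated CHG-only regions, 11 had a copy elsewhere (33.3%) and 0 had 10 or more. Hypomethylated CHG-only regions with a copy had a median CHG level of 0.345 in ndx1-4 and 0.560 in Col-0, and those without one 0.238 in ndx1-4 and 0.486 in Col-0.

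An identical copy over the whole length was found for 25 of the 310 regions, and reads from identical copies cannot be told apart by their sequence within the region. How reads with several matches were treated is not given in the sources used here. The largest loss of all CHG-only regions was such a case, at chr5:11850490-11850546, which had a level of 0.234 in ndx1-4 and 0.771 in Col-0 over 5 cytosines, with 93 copies of which 24 were identical. It was picked out after its values were seen, and it had too few cytosines for the rule by which regions are named.

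Several CHG-only regions were copies of each other, in whole or in part. In all, 12 regions fell into 5 families linked by sequence. Both families of 3 members, chosen after their values were seen, are printed to show related sequence listed at several places. The first family lay on 3 chromosomes. Its chromosome 3 member begins with the near-exact reverse complement of the start of the others, and the rest of it is not in their printed stretches.
chr1:13659601-13659710: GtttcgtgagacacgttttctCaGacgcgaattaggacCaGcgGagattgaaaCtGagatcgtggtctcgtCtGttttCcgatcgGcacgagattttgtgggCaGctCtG
chr3:14042851-14042939: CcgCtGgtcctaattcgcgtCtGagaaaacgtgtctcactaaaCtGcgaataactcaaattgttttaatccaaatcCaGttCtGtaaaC
chr4:1618485-1618621: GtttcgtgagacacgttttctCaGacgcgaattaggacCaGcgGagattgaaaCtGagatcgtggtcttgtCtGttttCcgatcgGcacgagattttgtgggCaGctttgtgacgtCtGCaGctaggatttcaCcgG
chr5:11235085-11235152: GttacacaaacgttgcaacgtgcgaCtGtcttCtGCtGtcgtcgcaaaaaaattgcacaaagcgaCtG
chr5:11236380-11236447: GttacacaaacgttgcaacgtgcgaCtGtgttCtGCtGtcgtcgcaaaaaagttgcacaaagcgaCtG
chr5:11240912-11240981: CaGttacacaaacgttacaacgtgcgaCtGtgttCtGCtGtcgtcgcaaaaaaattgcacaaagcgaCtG

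The member at chr1:13659601-13659710 had a level of 0.199 in ndx1-4 and 0.351 in Col-0. The member at chr3:14042851-14042939 had 0.0706 in ndx1-4 and 0.203 in Col-0, and the member at chr4:1618485-1618621 had 0.176 in ndx1-4 and 0.380 in Col-0. Each had 100 to 105 copies in the nuclear genome, and no other CHG-only region was linked to these 3. The chromosome 5 family lay within a few kb, at 97.1% identity, and its levels were 0.216, 0.252 and 0.138 in ndx1-4, against 0.385, 0.493 and 0.379 in Col-0 in the order printed. All 6 members were hypomethylated, with 9 to 20 cytosines each. So were all 63 CHG-only regions with 10 or more copies, so the shared direction is not particular to these families.

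Pseudogenes were the most frequent annotation. RefSeq pseudogene records, which in this annotation include transposon-derived genes, were touched by 100 of 277 hypomethylated CHG-only regions (36.1%, interval 30.7 to 41.9), against 25 of 176 overlapped hypomethylated regions (14.2%, interval 9.81 to 20.1). Of the 100, 3 also touched a protein-coding gene. Protein-coding genes were touched by 56 (20.2%), against 37 of 176 (21.0%), and 20 lay only within 1 kb upstream of a protein-coding gene (7.22%), against 29 of 176 (16.5%). A further 96 lay outside all of these and of noncoding genes (34.7%). Of the 33 hypermethylated CHG-only regions, 6 touched a protein-coding gene, 5 a pseudogene and 8 lay 1 kb upstream of a gene (24.2%, interval 12.8 to 41.0). In pericentromeric stretches 70 of 175 hypomethylated CHG-only regions touched a pseudogene (40.0%) and 21 a protein-coding gene. On the arms 30 of 102 touched a pseudogene (29.4%) and 35 a protein-coding gene (34.3%).

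**Figure D4:**
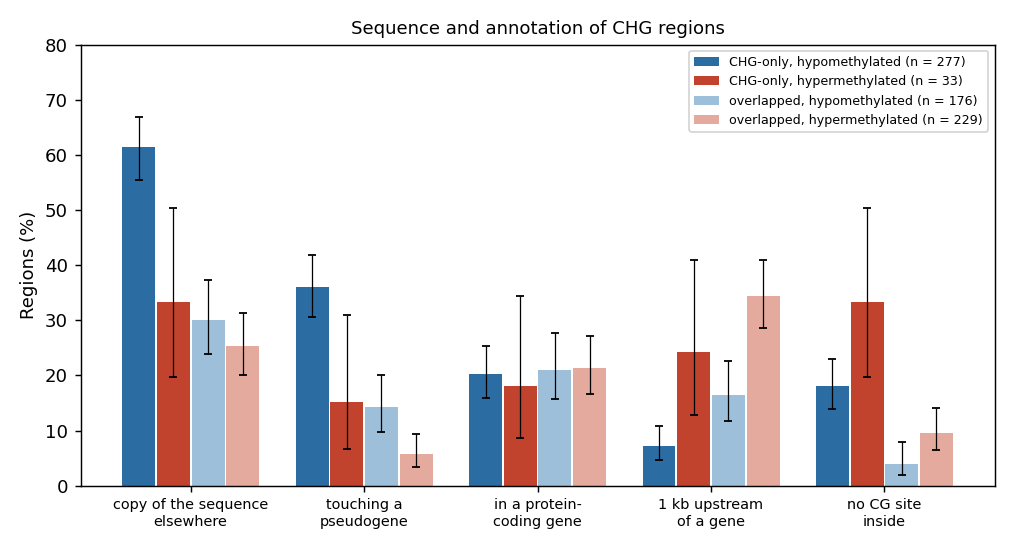
Share of CHG regions (y axis, %) with a copy of their sequence elsewhere, touching a pseudogene, in a protein-coding gene, within 1 kb upstream of one, or without a CG site (x axis), for CHG-only and overlapped regions of each direction. Bars are shares and error bars 95% Wilson intervals over regions. Hypomethylated CHG-only regions have copies in 61.4% and touch pseudogenes in 36.1%.

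The level kept in the mutant was lower at genes than in pseudogenes. CHG-only regions in protein-coding genes had a median CHG level of 0.208 in ndx1-4 and 0.459 in Col-0, or 45.4% kept (interval 41.7 to 52.3, n = 56). Those in pseudogenes and in no protein-coding gene had 0.384 in ndx1-4 and 0.622 in Col-0, or 65.8% kept (interval 62.3 to 69.5, n = 97). Those upstream of genes had 0.160 in ndx1-4 and 0.416 in Col-0, or 36.6% kept (interval 26.8 to 51.3, n = 20). The differences in level were close to each other, with medians of -0.22, -0.20 and -0.23, so the kept percentages moved with the Col-0 level.

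The 56 hypomethylated regions in protein-coding genes lay in 51 genes. Coding sequence was touched by 42 of them in 40 genes, untranslated exon sequence by 10 and intron alone by 8, and 17 lay wholly in coding sequence. The largest loss with 10 or more cytosines was in AT1G50350, annotated as an E3 ubiquitin-protein ligase RING1-like protein, where chr1:18648957-18649131 had a level of 0.0660 in ndx1-4 and 0.472 in Col-0. It covered 117 bp of coding sequence and 58 bp of intron, and its difference was -0.41. The next was chr1:16397941-16398176 in the untranslated exon sequence of the thioredoxin Y2 gene (AT1G43560, a redox protein), with 0.198 in ndx1-4 and 0.570 in Col-0. In AIR3 (AT2G04160, a subtilisin-like serine protease), chr2:1401791-1402286 had 0.164 in ndx1-4 and 0.477 in Col-0 over 274 bp of coding sequence and 222 bp of intron.

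ABCC13 (AT2G07680, an ABC transporter of the multidrug resistance-associated class) carried 2 hypomethylated CHG-only regions. The region chr2:3522476-3522682 at its 3' end had 0.138 in ndx1-4 and 0.448 in Col-0, and chr2:3517417-3517525, which also touched the microRNA gene MIR5646 and was named after its values were seen, had 0.217 in ndx1-4 and 0.521 in Col-0. The gene begins shortly after the end of the left-out mitochondrial copy. At AT5G38920, annotated as a ribonuclease H-like protein, the region chr5:15582387-15582614 had 0.269 in ndx1-4 and 0.581 in Col-0 over 28 cytosines. Only 53 of its 228 bp lay in the gene, in coding sequence, and the rest lay upstream.

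The longest CHG-only region also had the most cytosines. It spanned 620 bp with 62 cytosines at chr3:1560009-1560628, inside an intron of AT3G05410 (a PsbP family protein of photosystem II) that also holds the pseudogene AT3G05415. Its level was 0.277 in ndx1-4 and 0.578 in Col-0, and the nearest listed CG or CHH region was 46215 bp away. A second CHG-only region in an intron of the same gene, named after its values were seen, was chr3:1556224-1556312, with 0.668 in ndx1-4 and 0.829 in Col-0.

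The remaining regions among the 10 largest losses with 10 or more cytosines lay in pseudogenes or between genes. In the pseudogenes AT1G24370, AT4G03920 and AT1G35146, the levels were 0.253, 0.201 and 0.447 in ndx1-4, against 0.566, 0.513 and 0.751 in Col-0, at chr1:8644091-8644246, chr4:1860178-1860306 and chr1:12858360-12858507. The region chr2:6731767-6732020, which was 1513 bp from the nearest gene AT2G15430, had 0.264 in ndx1-4 and 0.582 in Col-0. The region chr4:1995678-1995773 had 0.234 in ndx1-4 and 0.539 in Col-0. These 10 had differences between -0.41 and -0.30, and 2 of them were pericentromeric. Losses in regions with fewer cytosines were larger in places, down to -0.54.

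Other genes with a hypomethylated CHG-only region in coding sequence were chosen here after their values were seen, because their products are well known. LOX2 (AT3G45140), a chloroplast lipoxygenase of jasmonate synthesis, had 0.221 in ndx1-4 and 0.503 in Col-0 over 5 cytosines. HA6 (AT2G07560), of the plasma membrane proton pump family, had 0.197 in ndx1-4 and 0.457 in Col-0, also over 5 cytosines. The serpin gene SRP2 (AT2G14540), which encodes a protease inhibitor, carried 2 regions with 0.0982 and 0.106 in ndx1-4, against 0.303 and 0.282 in Col-0. They held 9 and 4 cytosines. CRK41 (AT4G00970), a cysteine-rich receptor-like kinase, had 0.279 in ndx1-4 and 0.526 in Col-0 over 7 cytosines. AT3G30200, annotated as a plant transposase, had 0.157 in ndx1-4 and 0.383 in Col-0 over 12 cytosines. In these genes, as in all 42 hypomethylated coding-sequence regions, the Col-0 level was between 0.148 and 0.759. Some methylation in Col-0 is given by the definition, because a hypomethylated region has its higher level there.

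**Figure D5:**
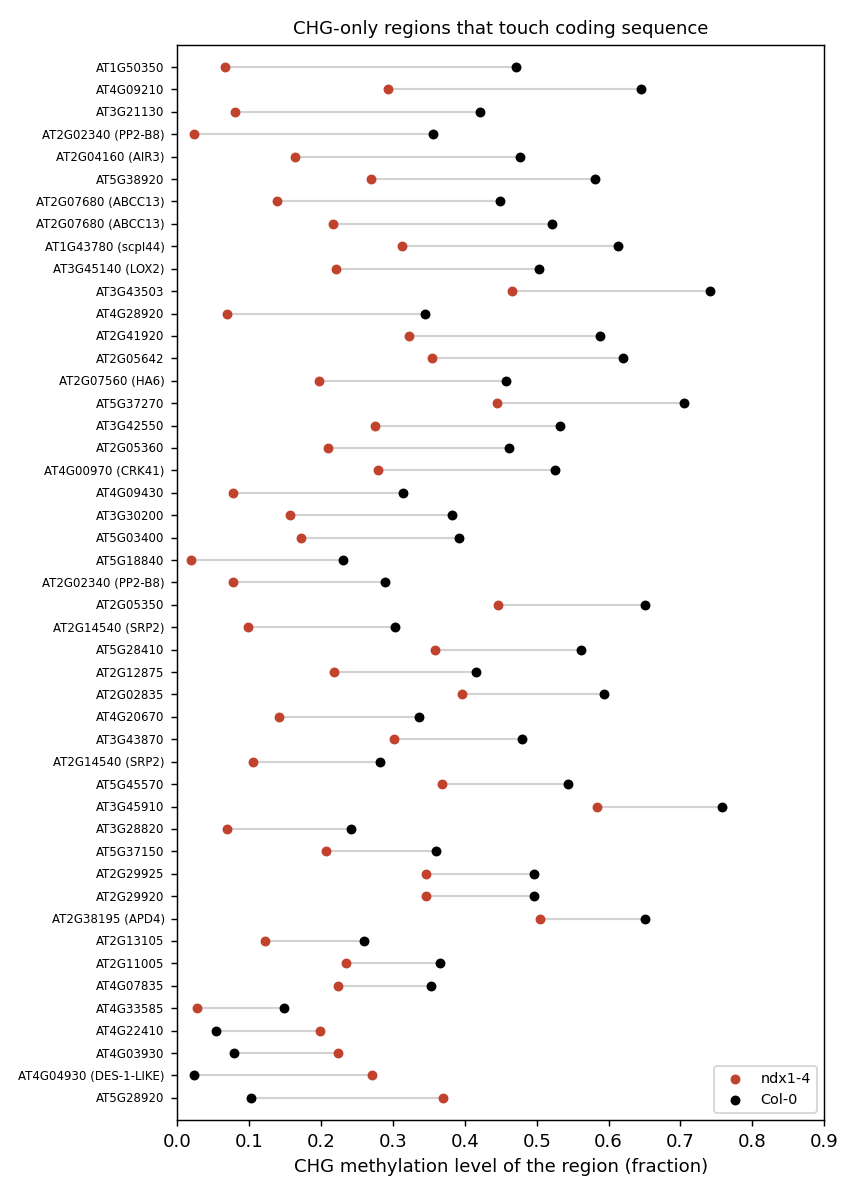
CHG methylation level (x axis, fraction) in ndx1-4 (red) and Col-0 (black) of each CHG-only region that touches coding sequence, by gene (y axis), sorted by the difference. A gene appears once per region, and 1 region touches both AT2G29920 and AT2G29925. The 4 regions at the bottom, in AT4G22410, AT4G03930, DES-1-LIKE and AT5G28920, were hypermethylated in ndx1-4.

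CHG-only regions rarely formed runs. Chaining regions of the same direction at 1000 bp or less gave 288 chains, of which 269 held 1 region, 16 held 2 and 3 held 3. A chain thus has a single direction by its rule, and the 3 chains of 3 were of hypomethylated regions. One covered the coding sequence and upstream side of AT2G13105, with 0.121, 0.136 and 0.224 in ndx1-4, against 0.259, 0.380 and 0.428 in Col-0, the last of them in a pseudogene. One lay between genes at chr3:11981377-11981811, with 0.449, 0.473 and 0.206 in ndx1-4, against 0.673, 0.689 and 0.462 in Col-0. One lay at AT4G20670, annotated as a cysteine-rich repeat secretory-like protein, with 0.170, 0.142 and 0.134 in ndx1-4, against 0.422, 0.336 and 0.273 in Col-0. Of the AT4G20670 chain, 2 regions had 14 identical copies each, so the reads there may belong to any of them.

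Of the 33 hypermethylated CHG-only regions, 25 lay on the arms, which make up most of the nuclear chromosomes. Per Mb they were not denser there, with 0.255 on the arms and 0.379 in pericentromeric stretches. Only 8 of the 33 had 10 or more cytosines, all of them on the arms. The largest gain among these was in the pseudogene AT4G27210 at chr4:13631889-13631967, with 0.567 in ndx1-4 and 0.326 in Col-0. Upstream of AT3G58415, chr3:21608403-21608483 had 0.580 in ndx1-4 and 0.362 in Col-0. These 2 were already methylated in Col-0, in contrast to the other 6, whose Col-0 levels were between 0.0217 and 0.0982.

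Of those 6, chr2:10199138-10199282 upstream of AT2G23970 (a glutamine amidotransferase-like protein) had 0.270 in ndx1-4 and 0.0982 in Col-0. The region chr5:15430740-15430857 at the 5' end of AT5G38540 (a mannose-binding lectin family protein) had 0.208 in ndx1-4 and 0.0281 in Col-0. Upstream of AT5G22580, chr5:7501959-7502120 had 0.204 in ndx1-4 and 0.0482 in Col-0. In AT4G03930, of the pectin methylesterase inhibitor family, chr4:1871294-1871454 had 0.224 in ndx1-4 and 0.0781 in Col-0. Upstream of UBC20 (AT1G50490, a ubiquitin-conjugating enzyme), chr1:18707234-18707302 had 0.164 in ndx1-4 and 0.0217 in Col-0. In the intron of AT3G05770, chr3:1711913-1712086 had 0.144 in ndx1-4 and 0.0242 in Col-0 over 19 cytosines. With AT4G03930, it had the most cytosines of any hypermethylated CHG-only region.

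The largest gain of all had 8 cytosines and was picked out after its values were seen. It lay at chr2:9670893-9670986, 686 bp upstream of the basic helix-loop-helix gene AT2G22750, with 0.382 in ndx1-4 and 0.0102 in Col-0. A pericentromeric gain, also named after its values were seen, lay upstream of XTH4 (AT2G06850, a cell wall xyloglucan endotransglucosylase/hydrolase), with 0.571 in ndx1-4 and 0.237 in Col-0 over 7 cytosines. Hypermethylated chains of 2 lay at chr2:11549468-11550410, with 0.641 and 0.385 in ndx1-4, against 0.451 and 0.251 in Col-0, and at chr4:2584580-2585049, with 0.342 and 0.353 in ndx1-4, against 0.0623 and 0.0529 in Col-0.

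A CHG-only region in or upstream of a gene was rare, with 91 of 27444 protein-coding genes (0.332%) carrying one in the gene or within 1 kb upstream. Of 35 listed genes of CHG maintenance and demethylation, of RNA-directed DNA methylation and of NDX partners and targets, 32 were matched in the annotation, and 0 had one, which nothing can be read from at this background. The nearest was SUVH6 (AT2G22740), 3854 bp from the hypermethylated region chr2:9670893-9670986. AGO4, a small-RNA-binding Argonaute, was 7076 bp and CLSY1, a chromatin remodeller of the Pol IV pathway, 7159 bp from a CHG-only region. The NDX gene itself (AT4G03090) was 246927 bp from the nearest one, and FLC, the flowering repressor whose antisense transcription NDX is known to repress, was 471596 bp away.

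Distances to regions of other contexts are given without a comparison set. A CG or CHH region lay within 1 kb of 63 of 277 hypomethylated CHG-only regions (22.7%) and within 5 kb of 148 (53.4%), with a median distance of 4177 bp. Of the 63, 53 had a nearest neighbour of the same direction, which was 35 of 40 where that neighbour was CHH and 18 of 23 where it was CG. Of all regions listed in CHH alone, 62.7% were hypomethylated, and 85.2% of those in pericentromeric stretches, close to the count at CHH neighbours. In CG alone the shares were 44.0% and 50.4%. For hypermethylated CHG-only regions, 12 of 33 had a neighbour within 1 kb and 10 of these had the same direction. Of all regions listed in CHH alone 37.3% were hypermethylated, and in CG alone 56.0%. The nearest region was CHH for 189 of the 277 (68.2%).

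Regions of both directions stood on either side of the edge of the overlap rule. The nearest to another context was chr2:615975-616153 in PP2-B8 (AT2G02340, of the phloem protein 2 family), which directly adjoined a hypomethylated CHH region and had 0.0227 in ndx1-4 and 0.356 in Col-0. A second CHG-only region in this gene, named after its values were seen, had 0.0771 in ndx1-4 and 0.288 in Col-0. At chr2:2249069-2249150, 6 bp from a hypomethylated CHH region, the level was 0.343 in ndx1-4 and 0.471 in Col-0. At chr2:1905205-1905280, 12 bp from a hypermethylated CHH region, it was 0.453 in ndx1-4 and 0.232 in Col-0. Just outside the rule, chr3:10460211-10460274 in AT3G28100 overlapped a CG region by 3 bp and had 0.0209 in ndx1-4 and 0.243 in Col-0. The next were chr2:4541818-4541939, overlapped by 6 bp, with 0.408 in ndx1-4 and 0.196 in Col-0, and chr1:17590815-17590914 in AT1G47770, overlapped by 7 bp, with 0.140 in ndx1-4 and 0.419 in Col-0.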

How the data were processed

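Bisulfite libraries of ndx1-4 and Col-0 seedlings (2 each, groups from the sample titles) were analysed from the table of differentially methylated regions that the authors deposited. Its levels are given by the authors as a fraction from 0 to 1, one mean per genotype and region, and its lengths and cytosine numbers were used as deposited. The difference and the area statistic, each a score of the authors' own comparison, were not used. The submitters' processing notes name Bismark and TAIR10. The region caller, its thresholds and all versions are not given in the sources used here. Differences were computed from the levels as ndx1-4 minus Col-0. Coordinates were set against the RefSeq TAIR10.1 sequence and annotation.

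Overlaps and counts were computed in Python 3.11.15 with pandas 2.3.3, numpy 2.4.6 and scipy 1.17.1, and checked on simulated regions with known overlaps. Each pericentromeric stretch was grown outwards from the 100 kb bin with the least exon coverage, smoothed over 1 Mb, as long as coverage was under 50% of the median of its chromosome. Copies were searched in the nuclear genome with blastn 2.17.0 (E-value 1e-05). The members and lists were chosen with earlier results of these data known. The rule for named regions took, in each direction, the 10 largest differences with 10 or more cytosines, the most cytosines, the largest chains at 1000 bp and the 2 smallest differences, and further any region at 35 listed genes and the 3 regions on each side of the overlap rule. Alternatives were another distance to other contexts, a minimum difference, a minimum number of cytosines, merging of neighbours, the mitochondrial copy included, each chromosome left out, other pericentromere and gene overlap definitions and, added after seeing the data, regions with identical copies left out.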

Additional observations from a re-analysis of the deposited data

How the results depend on the processing

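Of 82 alternative values over 7 results, 75 stayed within the 95% interval of the reported value and 7 lay outside it. Most alternatives reuse most of the same regions, so a value within the interval was likely from the start. The median differences could not change sign, because the regions were split by that sign. With 10 or more cytosines required, the hypomethylated share of CHG-only regions was 94.4%, the pericentromeric share of hypermethylated ones 0% and the share touching a protein-coding gene 25.2%. With the pericentromere set at under 25% of the chromosome median, the pericentromeric share was 43.3% of hypomethylated and 6.06% of hypermethylated CHG-only regions, because the stretches are then shorter. With an absolute difference of 0.2 or more required, the median difference was -0.25 in hypomethylated and 0.26 in hypermethylated regions, which follows from the requirement. Leaving out regions with an identical copy elsewhere, an alternative chosen after seeing the data, moved no result outside its interval. No paired analysis was possible because the levels used here combine both libraries of a genotype, and for the same reason leaving out each replicate was not run. The unknown read depth and the absence of single-library levels limit every value above to a description of the authors' list.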
